A study of Mus musculus with 6 samples.

Results

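The change in muscle transcripts between 3 h and 8 h of recovery was read from a pair of arrays, 2 of the 6 in the study. Each array was hybridised with total RNA from the skeletal muscle of mice that carried an implanted pacer and had been stimulated electrically for 3 h. For 1 array the muscle was harvested 3 h after stimulation ended, and for the other 8 h after it. Both samples were set against the same control muscle RNA, called Pre, in the second channel. The other paced arrays (muscle harvested 0 h, 1 h or 24 h after stimulation) are quoted for the time course, and the sham-operated array was not used. Strain, sex, age, the muscle taken and the number of mice behind each RNA are unknown here. Each time point had 1 array, so no difference below has a replicate check and no p-value was computed. The mice at 3 h and at 8 h were harvested at different times after surgery and stimulation, and any effect of the hour of harvest cannot be told apart from recovery.

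Electrical pacing makes muscle fibres contract through repeated depolarisation, calcium release and glycogen use. After such a bout, muscle cells pass through a wave of transcripts for signalling regulators and stress proteins, then through later changes in metabolic and protein-turnover genes, and finally return towards rest. Metallothioneins bind zinc and copper. The ubiquitin ligases Fbxo32 (atrogin-1) and Trim63 (MuRF1) mark muscle proteins for breakdown by the proteasome, and the L-type channel Cacna1s with the release channel Ryr1 couples depolarisation to calcium release.

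The values were log2 ratios to Pre, each array centred on its median, and a positive difference means higher at 8 h than at 3 h. The ratio is read as sample over Pre, the likely reading given that Pre is labelled the reference, although the dye of each channel is unknown. Of 13872 probes, 12096 (87.2%) had a value on both arrays. They gave 3670 of the 3939 genes on the array, of which 2675 had 1 probe and 995 had several. The arrays differed in width: the robust standard deviation (SD) of the log2 ratios was 0.445 at 3 h and 0.242 at 8 h, a ratio of 1.84. Differences were therefore also computed with both arrays scaled to a common spread of 0.328, and such values are called scaled. The width was 0.292 for the 0 h array, 0.176 for the 1 h array and 0.399 for the 24 h array.

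A gene was called at a 2-fold difference, a log2 difference of 1 or more in size. On centred ratios 96 of 3670 genes (2.62%) were called, 56 (1.53%) higher at 8 h and 40 (1.09%) lower. With the arrays scaled, 87 (2.37%) were called, of which 47 (1.28%) were higher and 40 (1.09%) lower. Genes that were 2-fold apart on both scales numbered 25 higher (0.681%) and 21 lower (0.572%). The 12 leading genes per direction come from these, while many others named below were 2-fold apart on 1 scale or on neither. The sign turned under scaling for 2 genes called on either scale, Rgcc (called on centred ratios) and Vamp8, a vesicle fusion protein (called on scaled ratios, -0.26 centred and 1.34 scaled). Near the edge of the call stood Ube2e3, a ubiquitin-conjugating enzyme, at 1.00 just inside (2.01-fold) and Psmc1, a proteasome ATPase, at 0.99 just outside.

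**Figure D1:**
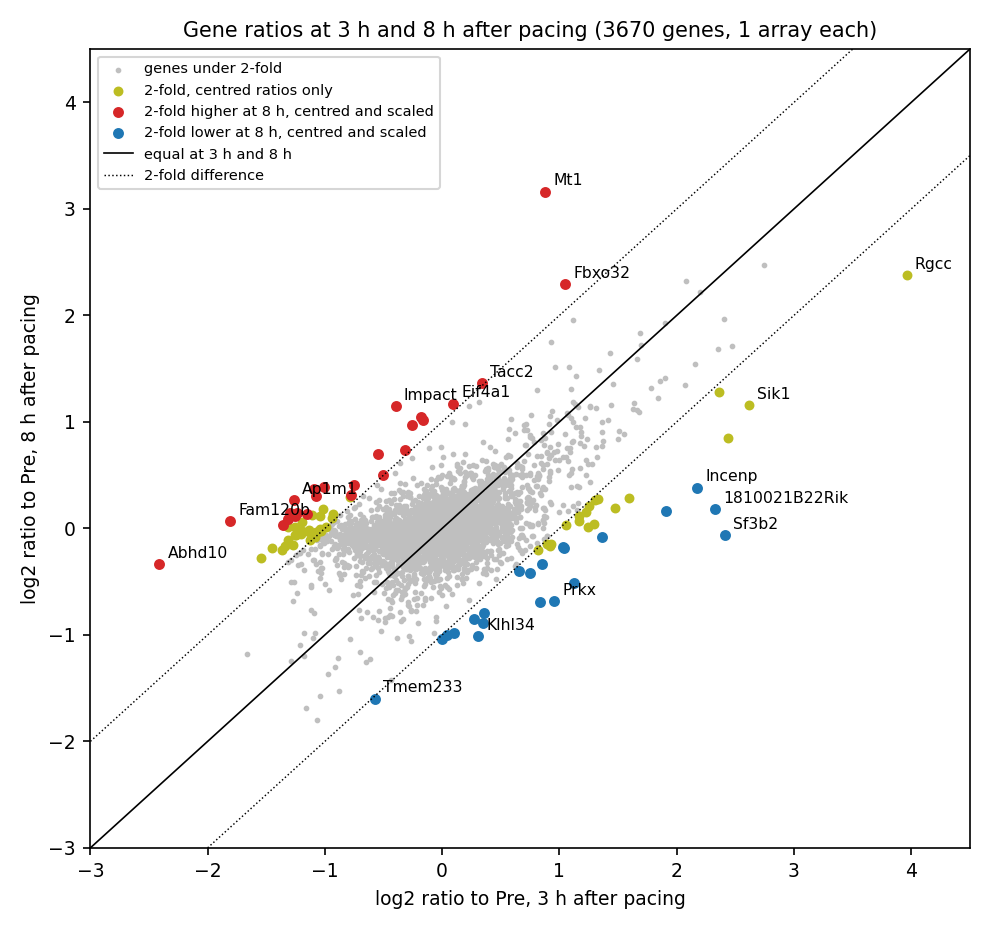
Log2 ratio to Pre at 3 h (x axis) and at 8 h (y axis) for 3670 genes, 1 array per axis. Points off the dotted lines differ 2-fold; red and blue genes do so on centred and scaled ratios, and olive genes on centred ratios alone. Mt1 and Fbxo32 stand high at 8 h, while Sf3b2, 1810021B22Rik and Incenp are high at 3 h and near 0 at 8 h.

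Most genes called on centred ratios were far from Pre at 3 h and close to it at 8 h, and fewer of those called on both scales were. Of the 56 genes higher at 8 h, 40 were at least 2-fold from Pre at 3 h and 7 at 8 h, and 46 (82.1%) lay nearer to Pre at 8 h than at 3 h. Their median ratio was -1.09 at 3 h and 0.08 at 8 h. Of the 40 genes lower at 8 h, 23 were at least 2-fold from Pre at 3 h and 7 at 8 h, and 32 (80.0%) lay nearer to Pre at 8 h. Their median was 1.09 at 3 h and -0.11 at 8 h. Of the genes called on both scales, 13 of 25 higher and 8 of 21 lower ones were at least 2-fold from Pre at 3 h, and 15 (60.0%) and 13 (61.9%) lay nearer to Pre at 8 h. Among all genes, 2465 (67.2%) lay nearer to Pre at 8 h, and 1755 (47.8%) did so once the arrays were scaled. A gene called by its 3 h value tends by construction to lie nearer to Pre on the narrower array.

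The arrays that did not enter the difference show the same position of the 3 h sample. Of the 43 higher genes measured on all 5 paced arrays, 37 (86.0%) had their lowest value at 3 h, and of the 33 such lower genes, 31 (93.9%) had their highest value there. Over all genes 3 h was the extreme array on that side for 1747 of 3213 (54.4%). For each gene the midpoint between its 3 h and 8 h values was taken. At 24 h, 45 of 51 higher genes (88.2%) and 31 of 37 lower genes (83.8%) stood on the 8 h side of that midpoint, against 60.3% of all genes. At 0 h, before the 3 h sample was taken, 41 of 49 higher genes (83.7%) and 31 of 36 lower genes (86.1%) stood on that side, against 65.6% of all genes. All of these shares use the 3 h value that chose the genes, so they are a description and support no call.

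The calls were not spread evenly over the table. Probes in identifier order were divided into 48 equal runs, and 176 of 4065 probes (4.33%) in the first 16 runs were 2-fold higher at 8 h. The share was 57 of 4029 (1.41%) in the next 16 runs and 54 of 4002 (1.35%) in the last 16. For lower probes the shares were 2.04%, 1.71% and 1.75%. The first 16 runs alone supplied 35 of the 56 higher genes and 16 of the 40 lower genes, against 996 of all 3670. Without those runs 20 of 2674 genes (0.748%) were higher and 31 (1.16%) lower, so the excess of higher over lower calls reversed. The part of array position in these calls was not tested. Of 5901 probes with no gene symbol, 165 (2.8%) were higher and 132 (2.24%) lower, and of 5933 probes with 1 symbol, 115 (1.94%) were higher and 89 (1.5%) lower.

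**Figure D2:**
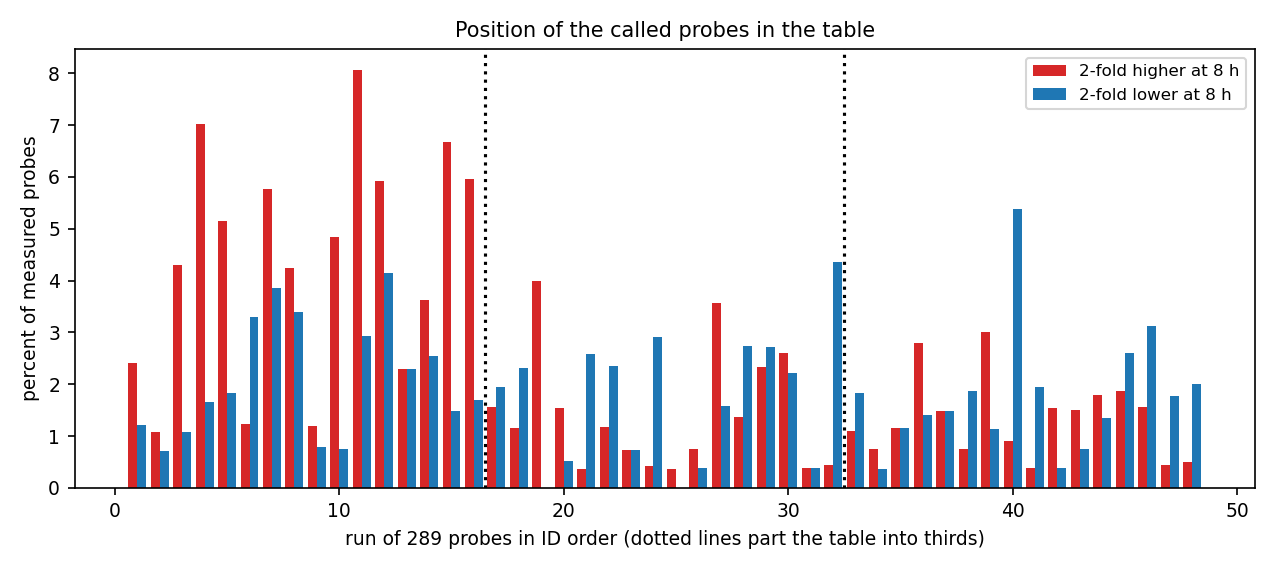
Percent of probes at least 2-fold higher (red bars) or lower (blue bars) at 8 h than at 3 h in each of 48 runs of probes in identifier order (x axis). The taller red bars lie among the first 16 runs, where 4.33% of probes were higher against 1.41% and 1.35% in the later runs.

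Of the 56 higher genes, 7 stood higher right after pacing, lower at 1 h and 3 h, and higher again at 8 h and 24 h. The largest difference towards higher values belonged to Mt1, metallothionein 1, which binds zinc and copper. In the order 0 h, 1 h, 3 h, 8 h and 24 h, kept for every time course below, its log2 ratio to Pre was 3.13, 0.47, 0.88, 3.16 and 3.59. The 8 h value exceeded the 3 h value by 2.28 (4.86-fold), or 3.64 with the arrays scaled. The cDNA spot can bind other metallothioneins, so the family member is uncertain. The 250 bases before the RefSeq start of Mt1 are shown because metal-responsive transcription of metallothioneins acts through metal response elements. They lie at chr8:94178839-94179088 on the plus strand of GRCm38.p6, with the match to the core of that element in capitals.

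Mt1: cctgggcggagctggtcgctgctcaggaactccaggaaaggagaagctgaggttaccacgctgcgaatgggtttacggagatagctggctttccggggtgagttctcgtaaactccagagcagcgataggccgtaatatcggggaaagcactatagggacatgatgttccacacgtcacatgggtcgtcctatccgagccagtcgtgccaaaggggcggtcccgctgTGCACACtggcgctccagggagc

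The core was searched on both strands as TGCACNC or TGCGCNC, which cannot match at the same bases. Mt1 held 1 match, whose first base lies 23 bases before the start, and 7032 of 32851 RefSeq promoters of this length (21.4%) held at least 1. Bases after this annotated start were not searched, so any elements there are missed and the count is not one for the whole promoter. The match describes the letters of this window and nothing about binding at either time.

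Fbxo32, the muscle ubiquitin ligase atrogin-1, followed the same course. Its ratio was 2.94, 1.02, 1.05, 2.29 and 3.01, a difference of 1.24 (2.36-fold) and 2.34 scaled. It never stood below Pre and was lowest at 1 h and 3 h. Eif4a1, the RNA helicase that unwinds mRNA leaders at the start of translation, stood at 1.35, 0.03, 0.10, 1.17 and 2.32 (difference 1.08, scaled 1.52). Tacc2, a centrosome-associated coiled-coil protein, stood at 1.87, 0.26, 0.34, 1.36 and 2.16 (difference 1.02, scaled 1.60). Both were near Pre at 1 h and 3 h and more than 2-fold above it on the other arrays. Cnn3, an actin-binding calponin, stood at 1.19, 0.07, -0.32, 0.74 and 0.99 (difference 1.06, scaled 1.24). Habp2, a serine protease that binds hyaluronan, stood at 0.75, -0.24, -0.18, 1.04 and 1.51 (difference 1.22, scaled 1.55). The ribosomal protein gene Rpl36al showed the course at a lower level, at 0.13, -0.38, -0.75, 0.40 and 0.95 (difference 1.15, scaled 1.10). These 7 are the higher genes for which 0 h and 24 h lay on the 8 h side, and 1 h on the 3 h side, of the midpoint between the 3 h and 8 h values. The rule was set after the values were seen. It was met by 420 of all 3670 genes in either direction and by 5 of the 40 lower genes. The course was therefore about as common among called genes as among all genes. Each rests on 1 probe, and 5 of them (Eif4a1, Tacc2, Cnn3, Habp2 and Rpl36al) on a probe in the first 16 runs.

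Proteasome genes stood among the higher calls, although the family as a whole was split. Psmb4, a subunit of the proteasome's catalytic core ring, had ratios of 0.45, -0.32, -0.26 and 0.97 up to 8 h, and no value at 24 h (difference 1.23, scaled 1.51). Psma1, a subunit of the outer ring, had ratios of 0.74, 0.14, -0.54, 0.69 and 0.60 (difference 1.24, scaled 1.34). Cells at exactly 0 were treated as not measured, and with such zeros kept the difference of Psma1 was 0.63. The 1 probe of Psmb4 lies in the first 16 runs and that of Psma1 does not. The regulatory ATPase Psmc1 moved from -1.22 to -0.23. Of 27 measured proteasome genes 15 (55.6%) were above 0, near the 50.7% of all genes, and 2 were 2-fold higher, where 1.53% of all genes were, and 0 lower. Their median difference was 0.11 (0.27 scaled), against 0.01 (0.04 scaled) for all genes, and -0.00 without the first 16 runs. Against Pre, the 27 genes had a median of 0.15 at 3 h, then 0.35 at 8 h and 0.51 at 24 h.

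The atrophy and autophagy list, which includes Mt1 and Fbxo32, had a median difference of 0.23 (0.54 scaled) over 18 genes, 13 of them above 0, and 0.03 without the first 16 runs. The list was drawn up with Mt1 and Fbxo32 already known to be high in these samples, so its direction is not independent of them. Trim63, the partner ligase MuRF1, stood at 2.08 at 3 h and 2.32 at 8 h over 2 probes, a difference of 0.25 (probe SD 0.58). The probe SD is the spread of a gene's probes on these arrays and not of animals. The 2 Trim63 probes moved in opposite ways and stood at unlike levels, from 0.76 to 1.42 and from 3.40 to 3.23. Both were above Pre at both times, and a mean difference of 1.62 appears with the arrays scaled. Bnip3l, a mitophagy receptor, differed by 0.49, and Gabarap, an autophagosome membrane protein, by -0.35 (0.03 scaled).

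Impact, a regulator of the kinase that senses uncharged tRNA, had no value at 0 h and then stood at 0.11, -0.40, 1.15 and 1.08, a difference of 1.55 (2.93-fold, scaled 1.86). By the smaller of the centred and scaled differences it came next after Mt1. Prkcz, an atypical protein kinase C, moved from -0.16 to 1.02 (1.17), but to 0.66 when zeros were kept. Pde4d, a phosphodiesterase that breaks down cyclic AMP, stood at 1.05, 0.40, 0.31, 1.19 and 1.10. Its 2 probes differed by 1.5 and 0.28, both higher at 8 h (mean 0.88, scaled 1.38).

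The remaining large higher differences came from genes far below Pre at 3 h. Abhd10, a mitochondrial serine hydrolase, stood at 0.10, -1.08, -2.41, -0.34 and -1.77 (difference 2.08, scaled 1.32). Fam120b, a coactivator of PPAR gamma, stood at 0.32, -0.64, -1.81, 0.07 and 0.65 (difference 1.88, scaled 1.42). Both were lower on each array up to 3 h and closer to Pre at 8 h, and Abhd10 was low again at 24 h. The adaptor subunit Ap1m1, which sorts cargo at the Golgi, moved from -1.26 to 0.27 (1.53, scaled 1.30). Rab30, a Golgi GTPase, moved from -1.10 to 0.37 (1.47, scaled 1.31). The adrenergic receptor Adra1b moved from -1.08 to 0.30 (1.38, scaled 1.21) and stood at -0.68 at 24 h. Mitochondrial genes in this group were Grpel2, an import co-chaperone (-1.24 to 0.14), Chchd4, which oxidises imported proteins (-1.16 to 0.13), and the ribosomal subunit gene Mrps10 (-1.25 to 0.11, difference 0.68 with zeros kept). Abhd10, Fam120b, Rab30, Grpel2, Chchd4 and Mrps10 each rest on 1 probe in the first 16 runs. Ap1m1 and Adra1b rest on 1 probe outside them.

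Genes with more than 1 probe allow the probes to be set against each other. Niban2 had a mean difference of 1.40, but its 2 probes gave 0.43 and 2.37 (probe SD 1.38). Vamp7, a vesicle fusion protein, gave 1.65 and 0.73 (mean 1.19, scaled 0.86). Dmpk, the myotonic dystrophy protein kinase, gave 0.87 and 1.43 (mean 1.15, scaled 0.81). Both were 2-fold below Pre at 3 h and at Pre by 8 h. All probes of Vamp7 and Dmpk lie in the first 16 runs, where higher calls were most frequent. Tomm22, a receptor of the outer mitochondrial import pore, gave 1.14 and 0.74 (mean 0.94). Rora, a nuclear receptor of the circadian clock, gave 1.41 and 0.49 (mean 0.95, scaled 0.82). For Tomm22 and Rora the larger value came from a probe in the first 16 runs and the smaller from a later run. Akt1, the insulin-pathway kinase with 1 probe, moved from -1.27 to -0.15 (1.12, scaled 0.73), and Akt2 from -0.78 to -0.01.

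**Figure D3:**
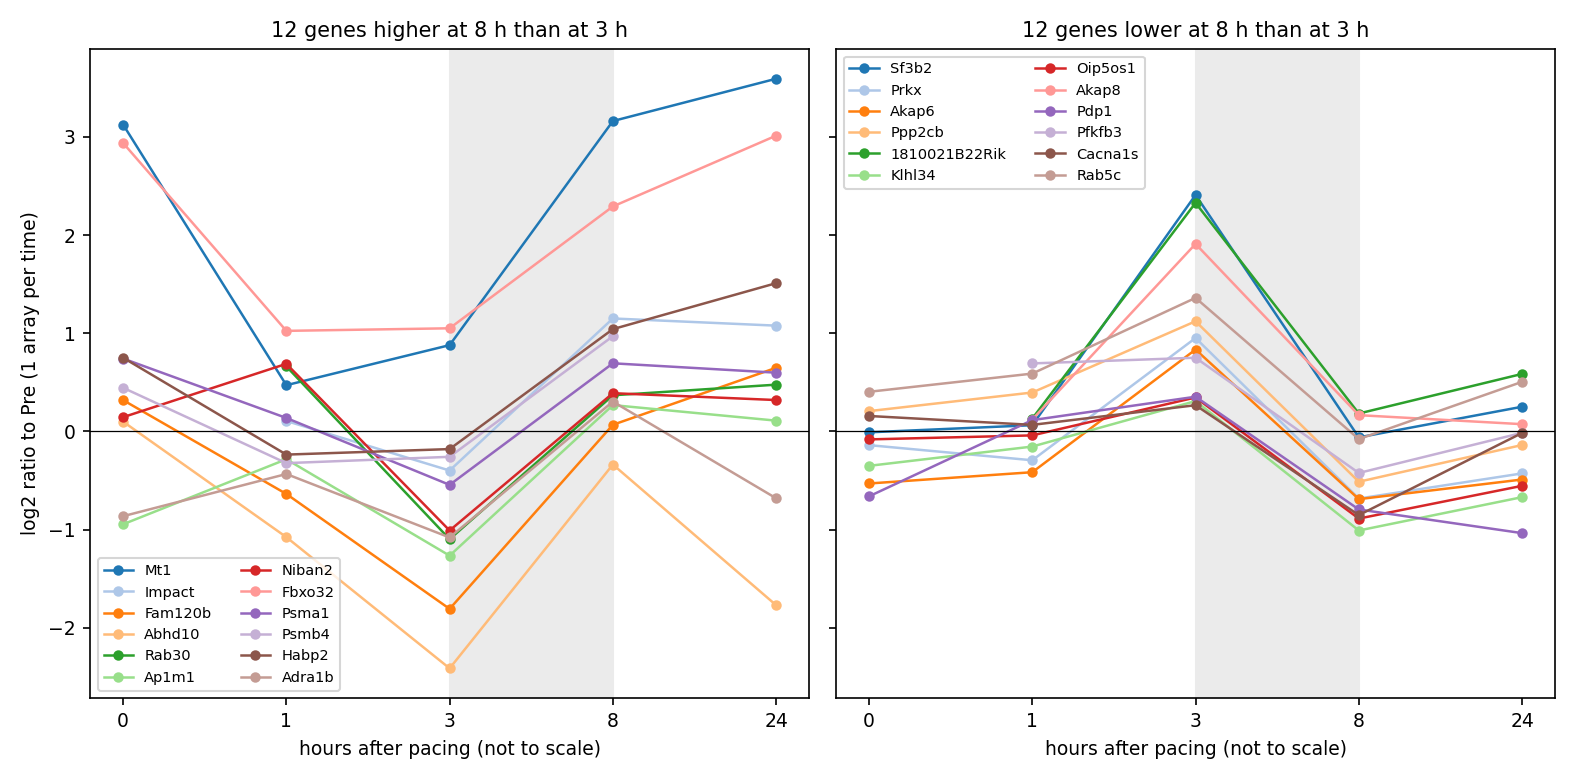
Log2 ratio to Pre at 0, 1, 3, 8 and 24 h after pacing (x axis, not to scale) for the 12 leading genes per direction, 1 array per time, with the 3 h to 8 h interval shaded. Mt1 and Fbxo32 are high at 0 h, 8 h and 24 h (left), and the lower genes share a peak at 3 h (right), tallest for Sf3b2 at 2.41.

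Among genes lower at 8 h, the largest differences belonged to transcripts seen high on the 3 h array alone. Sf3b2, a subunit of the splicing complex that recognises the branch point, stood at -0.01, 0.06, 2.41, -0.06 and 0.25. It was lower at 8 h by -2.47 (5.54-fold), or -1.86 scaled. The unnamed gene 1810021B22Rik moved from 2.33 to 0.18 (-2.15, scaled -1.47). Akap8, a nuclear anchor for protein kinase A, moved from 1.91 to 0.17 (-1.74, scaled -1.18). Incenp, a chromosomal passenger protein of dividing cells, moved from 2.18 to 0.38 (-1.80, scaled -1.09). None of these exceeded 0.73 on any other paced array that measured it, and each has 1 probe. Snrpd1, a core protein of the splicing particles, had 2 probes at -1.88 and -0.58 (mean -1.23, scaled -0.90). The splicing list as a whole had a median of -0.01 (0.09 scaled) over 38 genes, with 1 gene 2-fold higher (Tra2a, 1.40) and 2 lower (Sf3b2 and Snrpd1).

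Other genes stood moderately above Pre at 3 h. Prkx, a catalytic subunit related to protein kinase A, stood at -0.14, -0.29, 0.95, -0.68 and -0.43 (difference -1.63 on both scales). Akap6, which anchors protein kinase A at the nuclear envelope of muscle cells, stood at -0.53, -0.41, 0.83, -0.69 and -0.49 (-1.52, scaled -1.55). Ppp2cb, a catalytic subunit of protein phosphatase 2A, stood at 0.21, 0.40, 1.12, -0.51 and -0.14 (-1.63, scaled -1.52). These 3 genes crossed from above Pre at 3 h to below it at 8 h.

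Pdp1, the phosphatase that activates pyruvate dehydrogenase, had ratios of -0.66, 0.12, 0.35, -0.79 and -1.04 (-1.15, scaled -1.34), but its 2 probes gave -2.08 and -0.22. Pfkfb3 makes the activator of phosphofructokinase, the committed step of glycolysis. It had no value at 0 h and then stood at 0.69, 0.75, -0.42 and -0.01 (-1.17, scaled -1.13). Slc16a3, the MCT4 transporter that exports lactate from glycolytic fibres, stood at -0.29 at 0 h, had no value at 1 h, and then stood at 0.10, -0.98 and -0.88 (-1.08, scaled -1.40). Both were at or above Pre at 3 h and below it at 8 h, and Slc16a3 stayed low at 24 h. Slc16a3 and Pfkfb3 are known targets of hypoxia-inducible factor, which binds a core of ACGTG. The 250 bases before their RefSeq starts are therefore shown with that core in capitals. These 2 genes were picked from the lower calls, and targets of the factor were not examined as a set, so no direction is given for them. Slc16a3 lies at chr11:120948817-120949066 on the plus strand, and the start of Pfkfb3 shown, 1 of 2, at chr2:11553930-11554179 on the minus strand of GRCm38.p6.

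Slc16a3: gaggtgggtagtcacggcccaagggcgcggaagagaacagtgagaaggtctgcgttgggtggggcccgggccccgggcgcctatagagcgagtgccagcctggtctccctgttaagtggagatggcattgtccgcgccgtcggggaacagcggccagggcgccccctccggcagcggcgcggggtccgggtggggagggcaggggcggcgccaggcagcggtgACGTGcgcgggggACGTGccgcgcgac

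Pfkfb3: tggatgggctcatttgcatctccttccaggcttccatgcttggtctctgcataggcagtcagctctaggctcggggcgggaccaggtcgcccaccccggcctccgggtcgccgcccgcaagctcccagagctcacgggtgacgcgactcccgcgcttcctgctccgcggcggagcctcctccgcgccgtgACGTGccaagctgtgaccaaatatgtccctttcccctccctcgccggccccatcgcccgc

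Searched on both strands, the core occurred 2 times in the Slc16a3 window, first bases 27 and 14 before the start. It occurred 1 time in the Pfkfb3 window shown, 60 before the start. The window of the other Pfkfb3 start, not shown, held 2 overlapping matches, first bases 53 and 52 before that start. Of 32851 promoters, 5444 (16.6%) held it. These matches describe the letters alone.

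The glycolysis and glycogen list had a median difference of -0.21 (-0.35 scaled, -0.08 without the first 16 runs) over 26 genes. Of these, 18 (69.2%) were below 0, against 49.3% of all genes. On centred ratios 0 were 2-fold higher and 1 lower, where 1.09% of all genes were lower. Just short of a higher call stood the list member Pygb at 0.9998 (-1.25 to -0.25, scaled 0.58, 1 probe). The median ratio of the list to Pre was -0.04 at 3 h, -0.24 at 8 h and -0.37 at 24 h. Several of its genes carry many probes. Pfkm, muscle phosphofructokinase, moved from -0.07 to -0.50 and stood at -1.01 at 24 h (difference -0.42, scaled -0.62, probe SD 0.39, 6 probes). Phkg1, the catalytic subunit of phosphorylase kinase, moved from -0.21 to -0.72 and stood at -1.0 at 24 h (-0.51, scaled -0.82, probe SD 0.30, 5 probes). Gpd1, which passes glycolytic electrons to glycerol phosphate, moved from -0.28 to -1.01 and stood at -1.29 at 24 h (-0.73, scaled -1.17, probe SD 0.23, 2 probes). Ldhb, the lactate dehydrogenase subunit of oxidative fibres, had a mean difference of 0.61 (scaled 0.82, probe SD 0.60), with 4 of 5 probes above 0. Its probes disagreed in level: 1 stood at 2.28 at 3 h and 3.19 at 8 h, and the other 4 lay between -0.23 and 0.07 at 8 h.

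Of 19 calcium handling and excitation genes, 14 (73.7%) had a difference below 0, against 49.3% of all genes, and 1 was called lower. The called gene Cacna1s, the voltage sensor of the transverse tubule, stood at 0.16, 0.07, 0.27, -0.85 and -0.01 (-1.12, scaled -1.35). Its low value was confined to the 8 h array among the 5 and rests on 1 probe. Camk2a, a calcium-dependent kinase, moved from -0.88 to -1.53 (-0.65, probe SD 0.21, 4 probes; scaled -1.43). Ryr1, the calcium release channel, moved from 0.37 to -0.01 (-0.38, scaled -0.28, probe SD 0.24, 8 probes). Casq1, which stores calcium in the reticulum, moved from -0.70 to -1.16 (-0.46, scaled -1.06, probe SD 0.45, 9 probes). Jph2, which ties the reticulum to the transverse tubule, differed by -0.64 (scaled -1.12) with a probe SD of 0.89 over 3 probes. Rcan1, a feedback inhibitor of calcineurin, was 0.77 at 3 h and 0.02 at 8 h (-0.74, scaled -0.53, probe SD 0.26, 2 probes). None of the 19 genes was called higher, and 5 were called lower on scaled ratios, against 1.09% of all genes called lower on either scale. Beside Cacna1s these were Camk2a, Casq1, Jph2 and Aqp4 (-0.97 to -1.36; -0.39, scaled -1.13), all below Pre at both times. Scaling multiplied the 3 h ratios by 0.737 and the 8 h ratios by 1.36. A gene below Pre at both times is thereby moved towards a lower call by the scaling itself. The median was -0.24 (-0.39 scaled), and the median ratio to Pre was -0.10 at 3 h, -0.24 at 8 h and -0.45 at 24 h.

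Other lower calls had varied roles. Syt4, a vesicle synaptotagmin, moved from 0.04 to -1.0 (-1.04, scaled -1.39). Chrne, the adult subunit of the acetylcholine receptor at the neuromuscular junction, was just short of a call, moving from 0.70 to -0.20 (-0.91, scaled -0.79), with 2 probes at -0.56 and -1.26. Tmem233, a membrane protein, stood at -1.66, -0.30, -0.57, -1.60 and -2.52, low on the arrays where Mt1 was high (-1.03, scaled -1.75, but -0.51 with zeros kept). The matrix genes Bgn, the proteoglycan biglycan (0.65 to -0.40, 2 probes at -1.43 and -0.67), and Nid1, a basement membrane linker (0.93 to -0.15), were the 2 called members of the 24 matrix genes, whose median was -0.03 (-0.08 scaled). Rab5c, an early endosome GTPase, moved from 1.36 to -0.08 (-1.44, scaled -1.11, and -0.71 with zeros kept). Klhl34, a kelch-repeat protein, moved from 0.31 to -1.01 (-1.32, scaled -1.60).

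For many genes the reading depends on the scale of the arrays. Of the 96 genes called on centred ratios, 46 were also called on scaled ratios. Rgcc, a regulator of the cell cycle, stood at 2.19, 2.52, 3.96, 2.38 and 2.37, so 3 h was its highest array. It was lower at 8 h by -1.58 on centred ratios and higher by 0.31 on scaled ratios. Sik1, the salt-inducible kinase, stood at 1.44, 0.81, 2.61, 1.16 and 1.06 (-1.46, scaled -0.35). Ubr4, a ubiquitin ligase, moved from 2.36 to 1.28 (-1.09, scaled -0.01). These 3 genes stayed above Pre on all 5 arrays. In the opposite way, 41 genes were 2-fold apart on scaled ratios alone. Examples are Serpina3n, an acute phase protease inhibitor (1.12 to 1.96; 0.84, scaled 1.84), Pdk4, a kinase that restrains pyruvate dehydrogenase (2.20 to 2.22; 0.03, scaled 1.40), and Tfrc, the transferrin receptor (-1.16 to -1.69; -0.52, scaled -1.43). Ankrd1, a stretch-responsive protein of the sarcomere, moved from 0.96 to 1.52 and stood at 2.99 at 24 h, with probes that disagreed (0.56, scaled 1.35, probe SD 0.94, 3 probes).

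**Figure D4:**
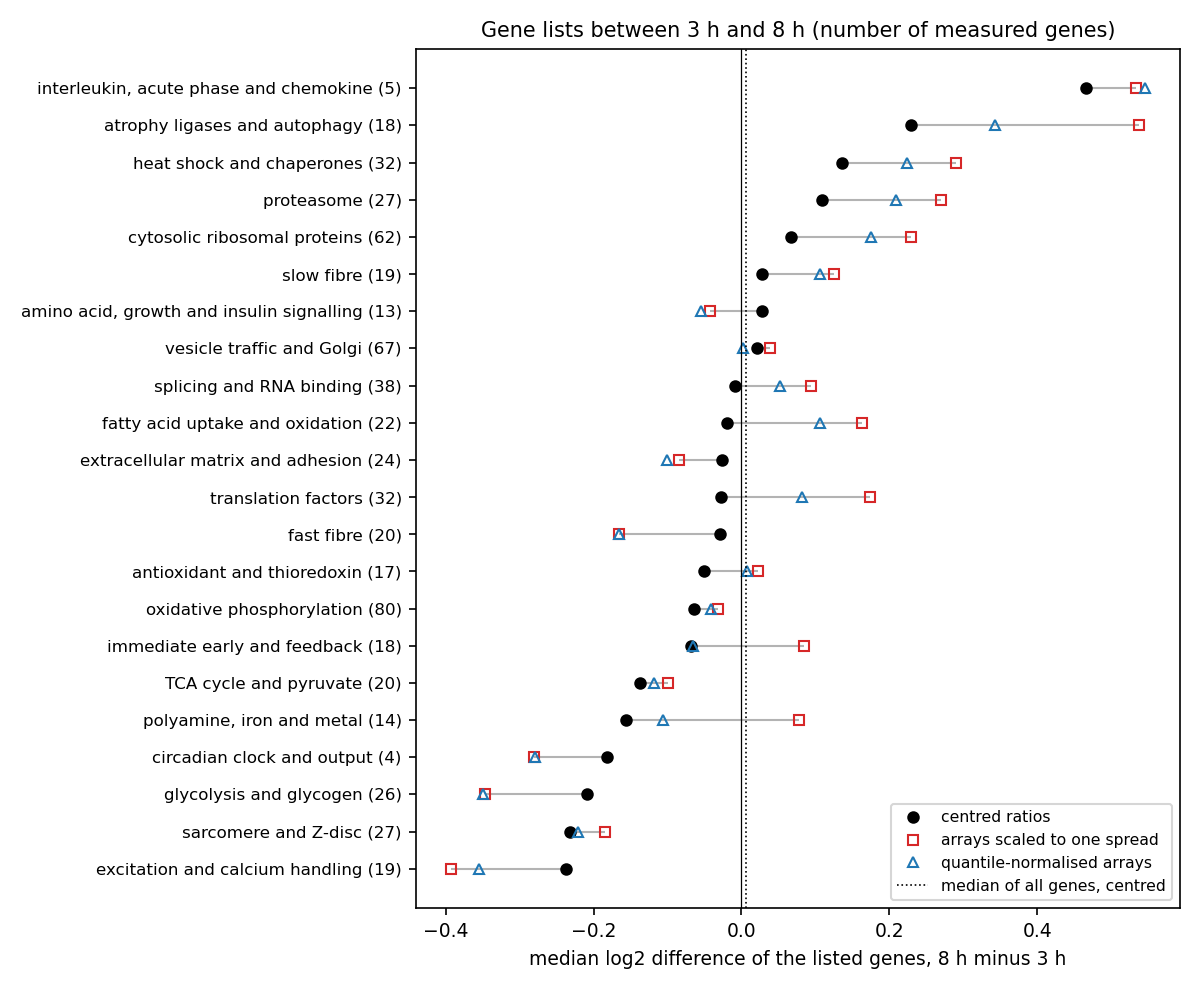
Median log2 difference, 8 h minus 3 h (x axis), of 22 gene lists with the number of measured genes in brackets, on centred (black), scaled (red squares) and quantile-normalised (blue triangles) arrays. The excitation and calcium list lies lowest at -0.24 and the interleukin list of 5 genes highest at 0.47, and 7 of the other lists change side between centred and scaled ratios.

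The 32 measured heat shock and chaperone genes differed by a median of 0.14 (0.29 scaled), 22 above 0 and 0 past 2-fold either way. Their median ratio to Pre was 0.13 at 3 h, 0.28 at 8 h and 0.69 at 24 h. Within them Cct4, of the cytosolic chaperonin (0.64, 1 probe), and the reticulum folding gene Canx (0.64, probe SD 0.32, 2 probes) rose most. Next came the reticulum folding genes Pdia3 (0.59, 1 probe) and Hsp90b1 (0.51, probe SD 0.27, 3 probes). The 10 genes below 0 included Calr (-0.41) and Dnajb1, a partner of Hsp70, which went from 0.49 to -0.20. The Pdia3 probe and the Canx probe with the larger difference (0.86) lie in the first 16 runs. The other Canx probe (0.41) and that of Cct4 do not. Cytosolic ribosomal protein genes had a median of 0.07 (0.23 scaled) over 62 genes. Oxidative phosphorylation genes had a median of -0.06 (-0.03 scaled) over 80 genes, with 53 below 0 and 1 lower call, Uqcrq (-1.04, -0.33 with zeros kept). TCA cycle and pyruvate genes had a median of -0.14 (-0.10 scaled) over 20 genes, 15 of them below 0.

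Sarcomere and Z-disc genes had a median of -0.23 (-0.18 scaled) over 27 genes, 19 of them below 0 and 0 past 2-fold on centred ratios. Immediate early genes had a median of -0.07 that turned to 0.08 when scaled, with 12 of 18 below 0 on centred ratios and 6 on scaled ones. Fatty acid genes (-0.02, 0.16 scaled), translation factors (-0.03, 0.17 scaled) and polyamine, iron and metal genes (-0.16, 0.08 scaled) turned in the same way. Of the circadian genes 4 were measured, with Rora at 0.95 and Per1 at -0.46.

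Genes with many probes showed whether a difference repeats between spots. Over the 995 genes with several probes the pooled probe SD was 0.424, and 405 (40.7%) had all probes on the same side of 0. Where the mean was at least 0.5 in size this held for 101 of 121 genes (83.5%). Of 205 genes with 4 or more probes, 22 had every probe on the same side, 6 higher and 16 lower, a group picked out after the values were seen. Gsn, the actin-severing protein gelsolin, was lower on all 11 probes, moving from 0.26 to -0.36 (-0.62, scaled -0.68, probe SD 0.28). The fibre genes Myoz2, a Z-disc protein of slow fibres (-0.30 to 0.30; 0.61, probe SD 0.26, 4 probes), and Tnnt3, fast troponin T (-0.14 to 0.27; 0.41, probe SD 0.27, 5 probes), were higher. Metabolic genes on the lower side were citrate synthase Cs (0.29 to -0.08; -0.37, probe SD 0.19), the phosphorylase kinase subunit Phka1 (-0.36, probe SD 0.19) and Hadha of fatty acid oxidation (1.00 to 0.15; -0.84, scaled -0.53, probe SD 0.67). Hadha gave -0.14 without the first 16 runs. Bckdha, of branched-chain amino acid breakdown, had the tightest probes (-0.30, probe SD 0.06, 5 probes), yet its sign turned to 0.10 when scaled. The sign of the other 21 did not turn.

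**Figure D5:**
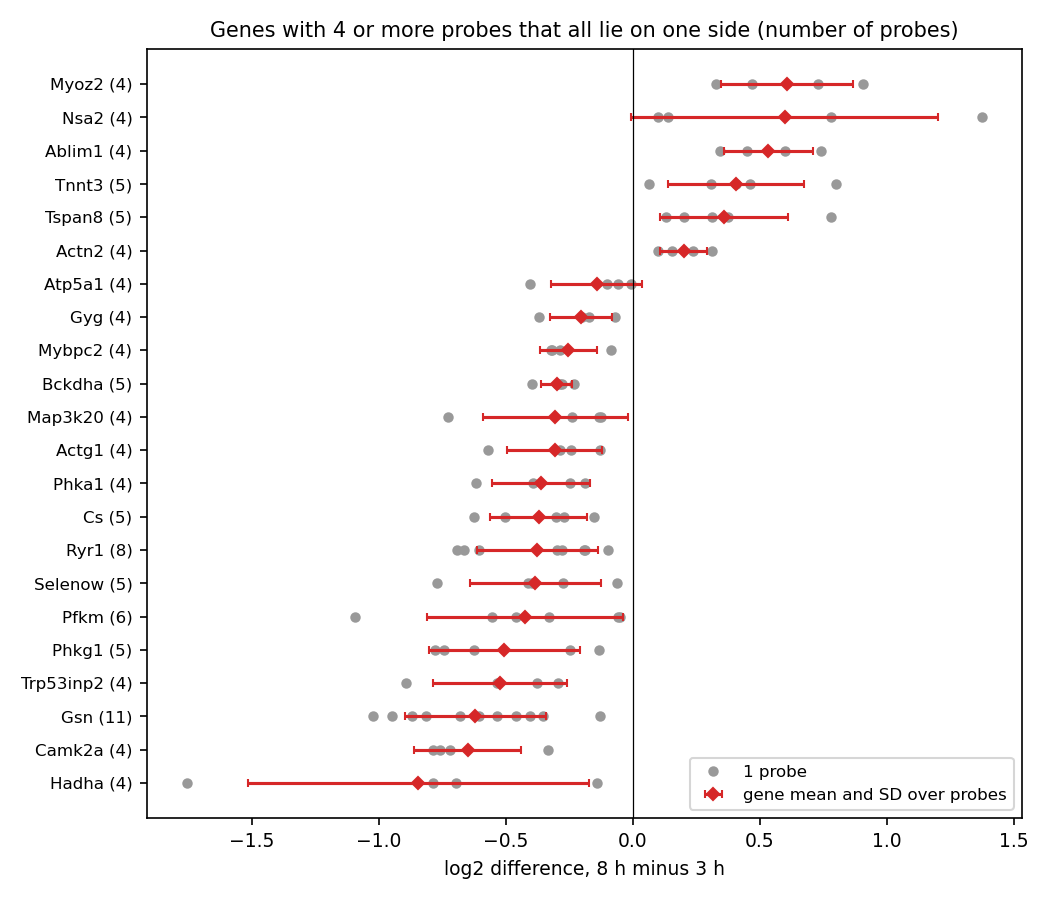
Log2 difference, 8 h minus 3 h (x axis), for the 22 genes with 4 or more probes that all lie on the same side of 0, with the number of probes in brackets. Grey points are probes and red diamonds the gene mean with the SD over probes; 16 genes lie below 0, led by Hadha at -0.84, and 6 above, led by Myoz2 at 0.61.

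Markers of other cell types were checked beside these results. Because only ratios to Pre were deposited, they show no absolute level. In whole muscle fewer cells of a type and less RNA per cell cannot be told apart. Skeletal fibre markers (8 of 9 measured) had a median difference of 0.11 (0.03 scaled) and ranged from -0.46 for Casq1 to 0.41 for Tnnt3. The medians were 0.09 (-0.10 scaled) for 5 smooth muscle markers, -0.01 (0.03 scaled) for 5 endothelial markers and 0.17 (-0.06 scaled) for 4 fibroblast markers. They were 0.37 (0.31 scaled) for 3 red cell markers, -0.09 (-0.05 scaled) for 2 adipocyte markers and 0.03 for Lyz2, the 1 white blood cell marker measured. The 3 genes listed as Schwann cell and nerve markers, Syt4, Snap91 and Pmp22, were lower at -1.04, -0.39 and -0.26 (-1.39, -1.09 and -0.23 scaled). Each rests on 1 probe, and they do not measure nerve content. Snap91 was below Pre at both times (-0.91 and -1.30), so the scaling itself moves it lower. No satellite cell marker of the list was on the array. The part of cell mixture in the differences was not tested.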

How the data were processed

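Muscle RNA was hybridised to 2-channel spotted arrays, 1 per group, against the reference RNA Pre. The values the authors deposited are log10 ratios, 1 for each probe on each array. Background correction, normalisation and dyes are not given in the sources used here. The log base was read from 44 cells of the paced arrays that hold the log10 rounding residue 9.64e-17. All 10 pairs of paced arrays correlated positively across probes (r from 0.49 to 0.68).

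Exact zeros (1673 at 3 h, 665 at 8 h) were treated as not measured. Ratios were converted to log2 and centred on each array's median (-0.01 at both times). The platform annotation pairs 6609 probes with exactly 1 gene symbol, 284 with several and 6979 with none, and 6599 of the 6609 matched GRCm38.p6 by Entrez ID. A gene is the mean of its probes with 1 symbol measured on both arrays. Scaling gave both arrays the geometric mean of their robust SDs (1.4826 times the median absolute deviation).

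Named genes were up to 12 per direction that were 2-fold apart centred and scaled, ordered by the smaller difference; up to 6 per direction with 2 or more probes that all lay the same way; and list members at 2-fold or among the 4 largest of their list. Other called genes and the genes with 4 or more probes were named after their values were seen. Members and lists were chosen with earlier results of these data known. Alternatives were quantile normalisation, zeros kept, no centring, centring per run, the median over probes, genes with 2 or more probes, a 1.5-fold threshold and, chosen after seeing the data, leaving out the first 16 runs. Scripts used Python 3.11.15, numpy 2.4.6, pandas 2.3.3 and matplotlib 3.10.9, and were tested on simulated data. Promoter sequences are from RefSeq.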

Additional observations from a re-analysis of the deposited data

How the results depend on the processing

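The counts of 56 higher and 40 lower genes kept within 1.5 times with the arrays scaled (47 and 40), quantile-normalised (42 and 37), zeros kept (52 and 34 of 3939 genes), no centring (53 and 40), centring per run (58 and 41) and the median over probes (57 and 40). The counts of 25 and 21 on both scales stayed within it too where these alternatives could be run, from 23 to 27 higher and from 17 to 21 lower. With quantile-normalised ratios in place of scaled ones, 36 higher and 30 lower genes were called on both. Genes with 2 or more probes gave 4 higher and 4 lower, and 1 and 3 on both scales, of 995 genes. A 1.5-fold threshold gave 327 higher and 188 lower, and 161 and 122 on both scales. Without the first 16 runs, chosen after seeing the data, 20 genes were higher, and 7 on both scales, while 31 and 19 were lower; this tests 2674 genes. Single genes were less stable than the counts. Of 188 genes followed, 75 moved when scaled by at least their probe SD, or by the median probe SD of 0.318 for 1 probe. Among called genes 1, Rgcc, reversed, to 0.31. With zeros kept Hp1bp3 gave -0.36 and Cope -0.54. No paired analysis was possible because each group has 1 array. The number of arrays and the single probe behind most calls (52 of 56 higher, 36 of 40 lower) limit the precision; no signal over background was used here.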

Other observations

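Txnip, which binds and restrains thioredoxin, stood at ratios of 1.06, 0.88, 0.92, 0.25 and 0.29 on the 5 paced arrays in time order, over 2 probes (difference -0.67, probe SD 0.08, scaled -0.34). It was above Pre up to 3 h and nearer to it at 8 h. At 24 h its 2 probes disagreed, at 0.68 and -0.09. Klf9, a transcription factor that responds to glucocorticoids, stood at 1.26, -0.04, -0.36, 0.61 and 0.45 (difference 0.97, scaled 1.09). Mlycd, malonyl-CoA decarboxylase, which relieves the block on fatty acid entry into mitochondria, stood at 0.67, 1.07, 0.08, 1.00 and 0.96, with 3 h the lowest array (difference 0.92, scaled 1.30).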
